A study of Caenorhabditis elegans with 2 samples.

Results

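The 8 genes that encode the DRM complex of Caenorhabditis elegans were set against the genome-wide peaks of ROW-1, a protein with zinc fingers of the C2H2 type. They are lin-35, the only retinoblastoma (Rb) family gene of this nematode, efl-1 and dpl-1, which encode an E2F protein and its DP partner, and lin-9, lin-37, lin-52, lin-53 and lin-54, which encode the MuvB subunits. All 8 were found by name among the 19973 nuclear protein-coding genes of the Ensembl annotation. They were chosen by name with results of these same peak lists already known, so their counts and signals are a description and carry no test. Chromatin immunoprecipitation and sequencing (ChIP-seq) with an antibody against GFP was done on whole L4 hermaphrodites, which is the final larval stage, at 48 h from the synchronization of starved L1 larvae obtained by bleaching. Both libraries came from transgenic worms of strain OP510, genotype unc-119(tm4063) III; wgIs510, which expressed F37D6.2 (row-1) as a fusion with a GFP-FLAG tag at its C terminus. The series had 1 group of 2 biological replicates and no contrast between conditions. The tagged protein stands in for ROW-1, and the animals carried the unc-119 mutation in both replicates. In whole animals, a site occupied in few cells and a site occupied weakly in many cannot be told apart. Neither a control library nor a strain with another tagged protein was used here, so signal that a GFP-tagged protein might give at any open promoter was not separated from ROW-1 binding.

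The DRM complex is the nematode form of the DREAM complex, which holds cell cycle genes and germline genes in a repressed state. LIN-35 is the pocket protein that joins the E2F-DP pair to the MuvB subunits, and LIN-54 contacts DNA directly, at CHR elements in mammals. In C. elegans these genes belong to the synMuv B class: loss of one of them together with a synMuv A gene turns extra epidermal cells to a vulval fate, during larval development. Proteins of this class also keep germline genes silent in somatic cells.

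The 4 lists used held 1574 peaks that the submitters kept after setting both replicates against each other (the optimal list), 30000 calls from pooled reads, 28339 calls from replicate 1 and 25405 calls from replicate 2. The optimal list was exactly the 1574 strongest pooled calls. Call lists of the replicates and the pool hold peaks together with background calls, so a call of low rank in them need not be a peak. Each call has a signal value, the authors' own measure of strength, which ran from 74.8 to 4375 in the optimal list with a median of 115. Signals of different lists have no known common scale, and values are compared by rank within a list, rank 1 being the strongest.

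Promoters of 5 of the 8 genes held an optimal peak: lin-54, lin-53, lin-9, lin-35 and efl-1, in falling order of signal. The promoter was taken as the 500 bp upstream to 200 bp downstream of any annotated 5' end, and a peak was counted where its summit, the highest point, fell in it. Of all coding genes, 914 of 19973 (4.58%) had such a peak. The same 5 promoters held calls among the 1574 strongest of replicate 1, where 4.59% of coding genes did, and among the 1574 strongest of replicate 2, where 4.22% did. From 2 kb upstream to the end of the gene, the optimal list again had peaks at these 5 genes, against 8.6% of coding genes. With the long pooled list, promoter calls of any strength were found at 6 of the 8 genes, against 29.2% of coding genes, and calls anywhere from 2 kb upstream to the gene's end at 8 of 8, against 55.5%. The choice of genes used these lists, so nothing further is read from these counts.

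The order lin-54, lin-53, lin-9, lin-35, efl-1 was the same in the optimal list, in replicate 1 and in replicate 2. Ranks of lin-53 and lin-9 overlapped between replicates: lin-53 stood at rank 173 in replicate 1 and 93 in replicate 2, and lin-9 at 275 and 157. Each of the other neighbours in this order had separate ranges of rank. Among the 914 coding genes with a promoter peak, ordered by signal, lin-54 was gene 20, lin-53 gene 65, lin-9 gene 122, lin-35 gene 183 and efl-1 gene 423. The median signal over the 5 genes was 234, against 116 over the 914 genes.

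**Figure D1:**
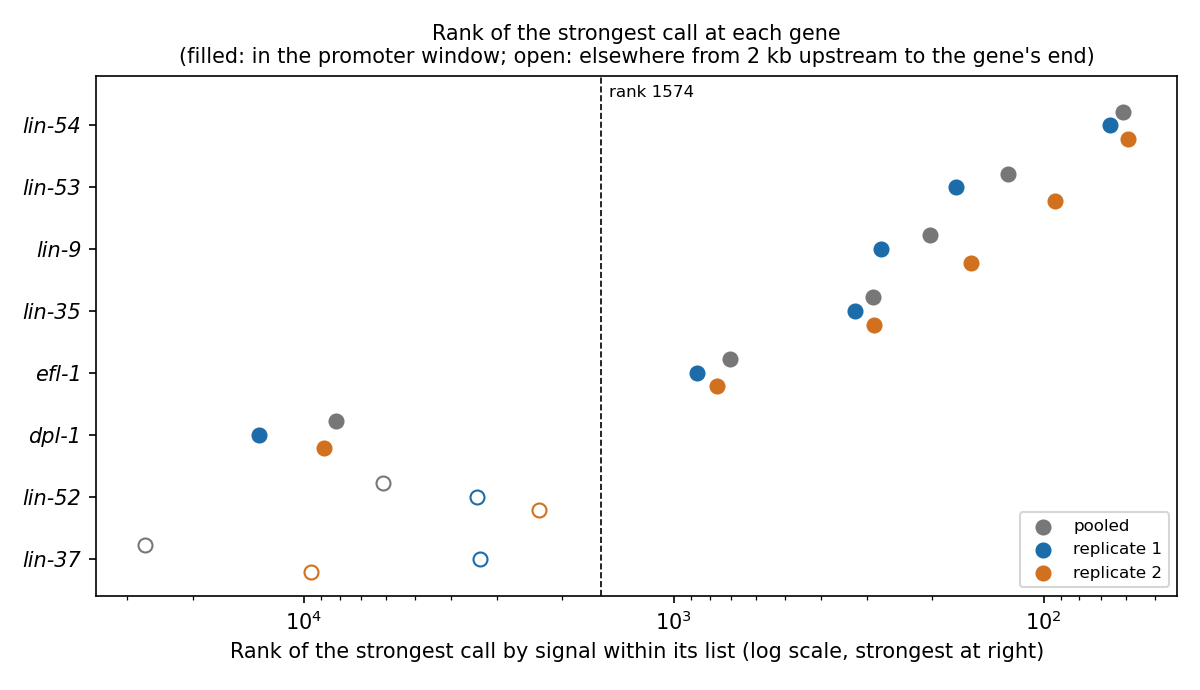
Rank of the strongest call at each of the 8 genes (horizontal log axis, strongest at right) in the pooled list and in each replicate, 1 point per list; filled points are calls in the promoter window, open points calls elsewhere from 2 kb upstream to the gene's end, and the dashed line marks rank 1574. All 15 points of lin-54, lin-53, lin-9, lin-35 and efl-1 lie right of the line, and all 9 points of dpl-1, lin-52 and lin-37 lie left of it.

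**Figure D2:**
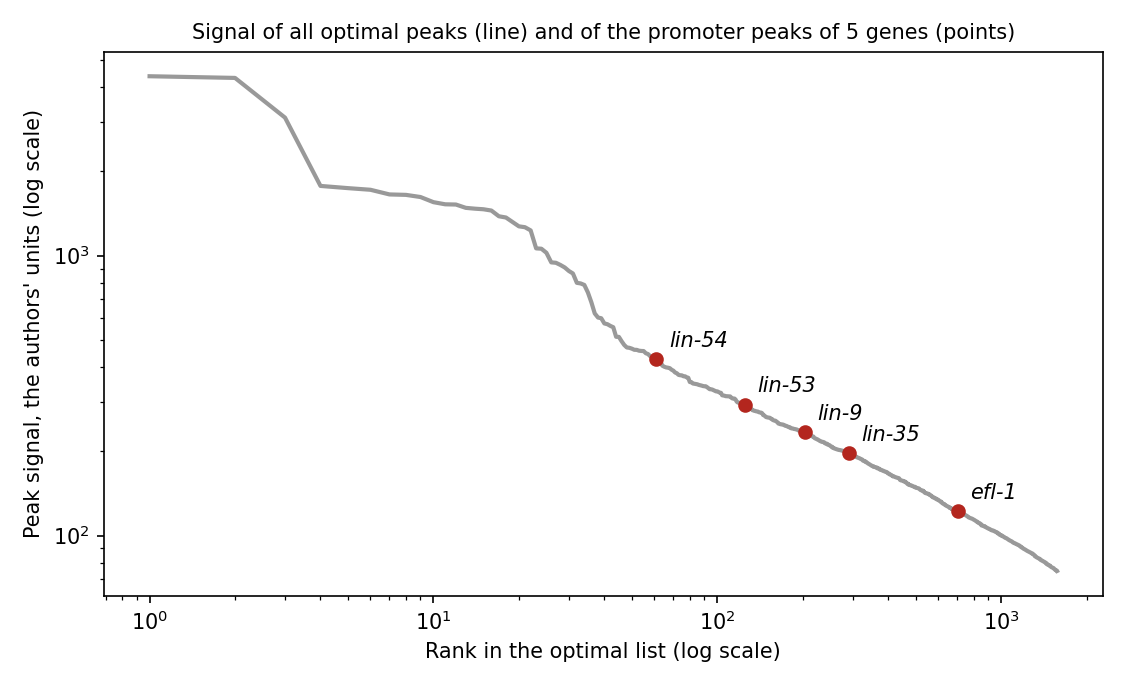
Signal (vertical log axis, the authors' units) against rank (horizontal log axis) for the 1574 optimal peaks as a line, with the promoter peaks of the 5 genes as points. The points run from rank 61 (lin-54, signal 427) to rank 704 (efl-1, signal 122).

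Among the MuvB genes, lin-54, lin-53 and lin-9 carried peaks, whereas lin-37 and lin-52 carried none; lin-53, which also serves other complexes, is described with lin-35. The lin-54 gene (WBGene00003037) encodes the DNA-binding subunit and lies at chrIV:13241044-13243401 on the plus strand of WBcel235. Its peak at chrIV:13240519-13240858 had a signal of 427 and rank 61 in the optimal list, 233 and rank 66 in replicate 1, and 192 and rank 59 in replicate 2. This signal was 5.71 times the lowest of the optimal list. The summit lay 366 bp upstream of lin-54 in the optimal list, and 338 and 337 bp upstream in replicates 1 and 2, whose summits were 1 bp apart. On its other side lies rpl-12, a gene for a protein of the large ribosomal subunit, which is transcribed away from lin-54. The optimal summit was 27 bp upstream of the 5' end of rpl-12, and the replicate summits were 55 and 56 bp upstream of it. The peak was therefore far closer to rpl-12 than to lin-54, and which of the genes it concerns was not tested. When peaks nearest a ribosomal protein gene were left out, an alternative added after the data were seen, 4 of the 8 genes had a promoter peak, against 4.41% of coding genes.

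The lin-9 gene (WBGene00002998) encodes a core MuvB subunit and lies at chrIII:8900237-8904131 on the minus strand. Its peak at chrIII:8904173-8904425 had a signal of 234 (rank 203), with 119 (rank 275) in replicate 1 and 113 (rank 157) in replicate 2. The summit lay 158 bp upstream of lin-9 and in no other coding gene's promoter, and the replicate summits were 1 bp apart. A further optimal peak followed 1117 bp away at chrIII:8905191-8905620, near the lower edge of the list with a signal of 75 and rank 1566. It fell in the promoters of unc-32, which encodes a subunit of the vacuolar proton pump, and of the noncoding gene ZK637.19, and it lay 1275 bp upstream of lin-9. The replicates differed at this weak peak. Replicate 1 had a call of 60.1 at rank 1014 there, with its summit 192 bp upstream of unc-32. In replicate 2 the strongest overlapping call was 18.7 at rank 4705, with its summit 541 bp upstream of unc-32.

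The lin-37 and lin-52 genes encode small MuvB subunits. At lin-37 (WBGene00003022, chrIII:7070890-7072552, minus strand), no list had a call in the promoter window set by its annotated 5' end. The pooled list had 1 call, of 13.7 at rank 26871, in the coding exon 222 bp downstream of the 5' end. Replicate 1 had 1 call 1552 bp upstream, of 27.9 at rank 3338, in the promoter of ZK418.5. Replicate 2 had calls of 13.7 at rank 9550 and 11.5 at rank 13779 in the same stretch. The pooled list had no call there, although its lowest calls reached 12.4. Among the 3338 strongest calls of replicate 1, 25 (0.749%) overlapped no pooled call.

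At lin-52 (WBGene00003035, chrIII:9824083-9824750, minus strand), calls were weak in every list. The strongest pooled calls were 31.6 at rank 6127, 721 bp upstream and in the promoter of ZK632.9, and 31.3 at rank 6245, 1433 bp upstream. Replicate 1 had its strongest call 1419 bp upstream, with 27.6 at rank 3413. Replicate 2 had its strongest 612 bp upstream, with 26.4 at rank 2309. The strongest call was therefore at a different site in each replicate. The site of replicate 1, which the pooled call at 1433 bp overlapped, also had a call in replicate 2, of 8.67 at rank 23173 and 1488 bp upstream. In the intron of lin-52 the pooled list had 20.6 at rank 14151 and replicate 1 had 19.6 at rank 6433. Their summits lay 202 and 203 bp downstream of the nearest annotated 5' end, just outside the promoter window, which ends at 200 bp. Only replicate 1 had a call in the promoter itself, of 9.16 at rank 25099.

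Within the E2F-DP pair, efl-1 had a peak and dpl-1 did not. The efl-1 gene (WBGene00001161) encodes an E2F protein and lies at chrV:16958590-16965675 on the minus strand. Its peak at chrV:16965654-16966083 had a signal of 122 (rank 704), with 66 (rank 863) in replicate 1 and 49.8 (rank 764) in replicate 2. The summit lay 194 bp upstream in the optimal list and in replicate 1, and 190 bp upstream in replicate 2. No other gene shared it, and no other optimal summit lay within 100 kb, the nearest being 564 kb away. This was the weakest promoter peak of the 5. The optimal peaks just above and just below it, at ranks 703 and 705, had signals of 122, in the promoter of T01H3.7, and 121.9, in no promoter. The edge of the list itself was at 74.81, and the strongest pooled call outside it had 74.8.

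The dpl-1 gene (WBGene00001061, chrII:9169910-9172565, plus strand) encodes the DP partner that E2F proteins need to bind DNA. All 3 call lists had a promoter call at nearly the same place, far down each list. The pooled call had a signal of 27.2 at rank 8199, 270 bp upstream. Replicate 1 had 13.5 at rank 13235, 257 bp upstream, and replicate 2 had 14.2 at rank 8807, 264 bp upstream. The −log10 q of the pooled call was 0.562, against 3.02 at the 5 promoter peaks. The weak optimal peak at rank 1566 upstream of lin-9 had 3.02 as well, so this value does not grade the optimal peaks. This summit lies in an exon of a noncoding transcript of T23G7.2, a gene on the other strand that spans the 5' end of dpl-1.

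**Figure D3:**
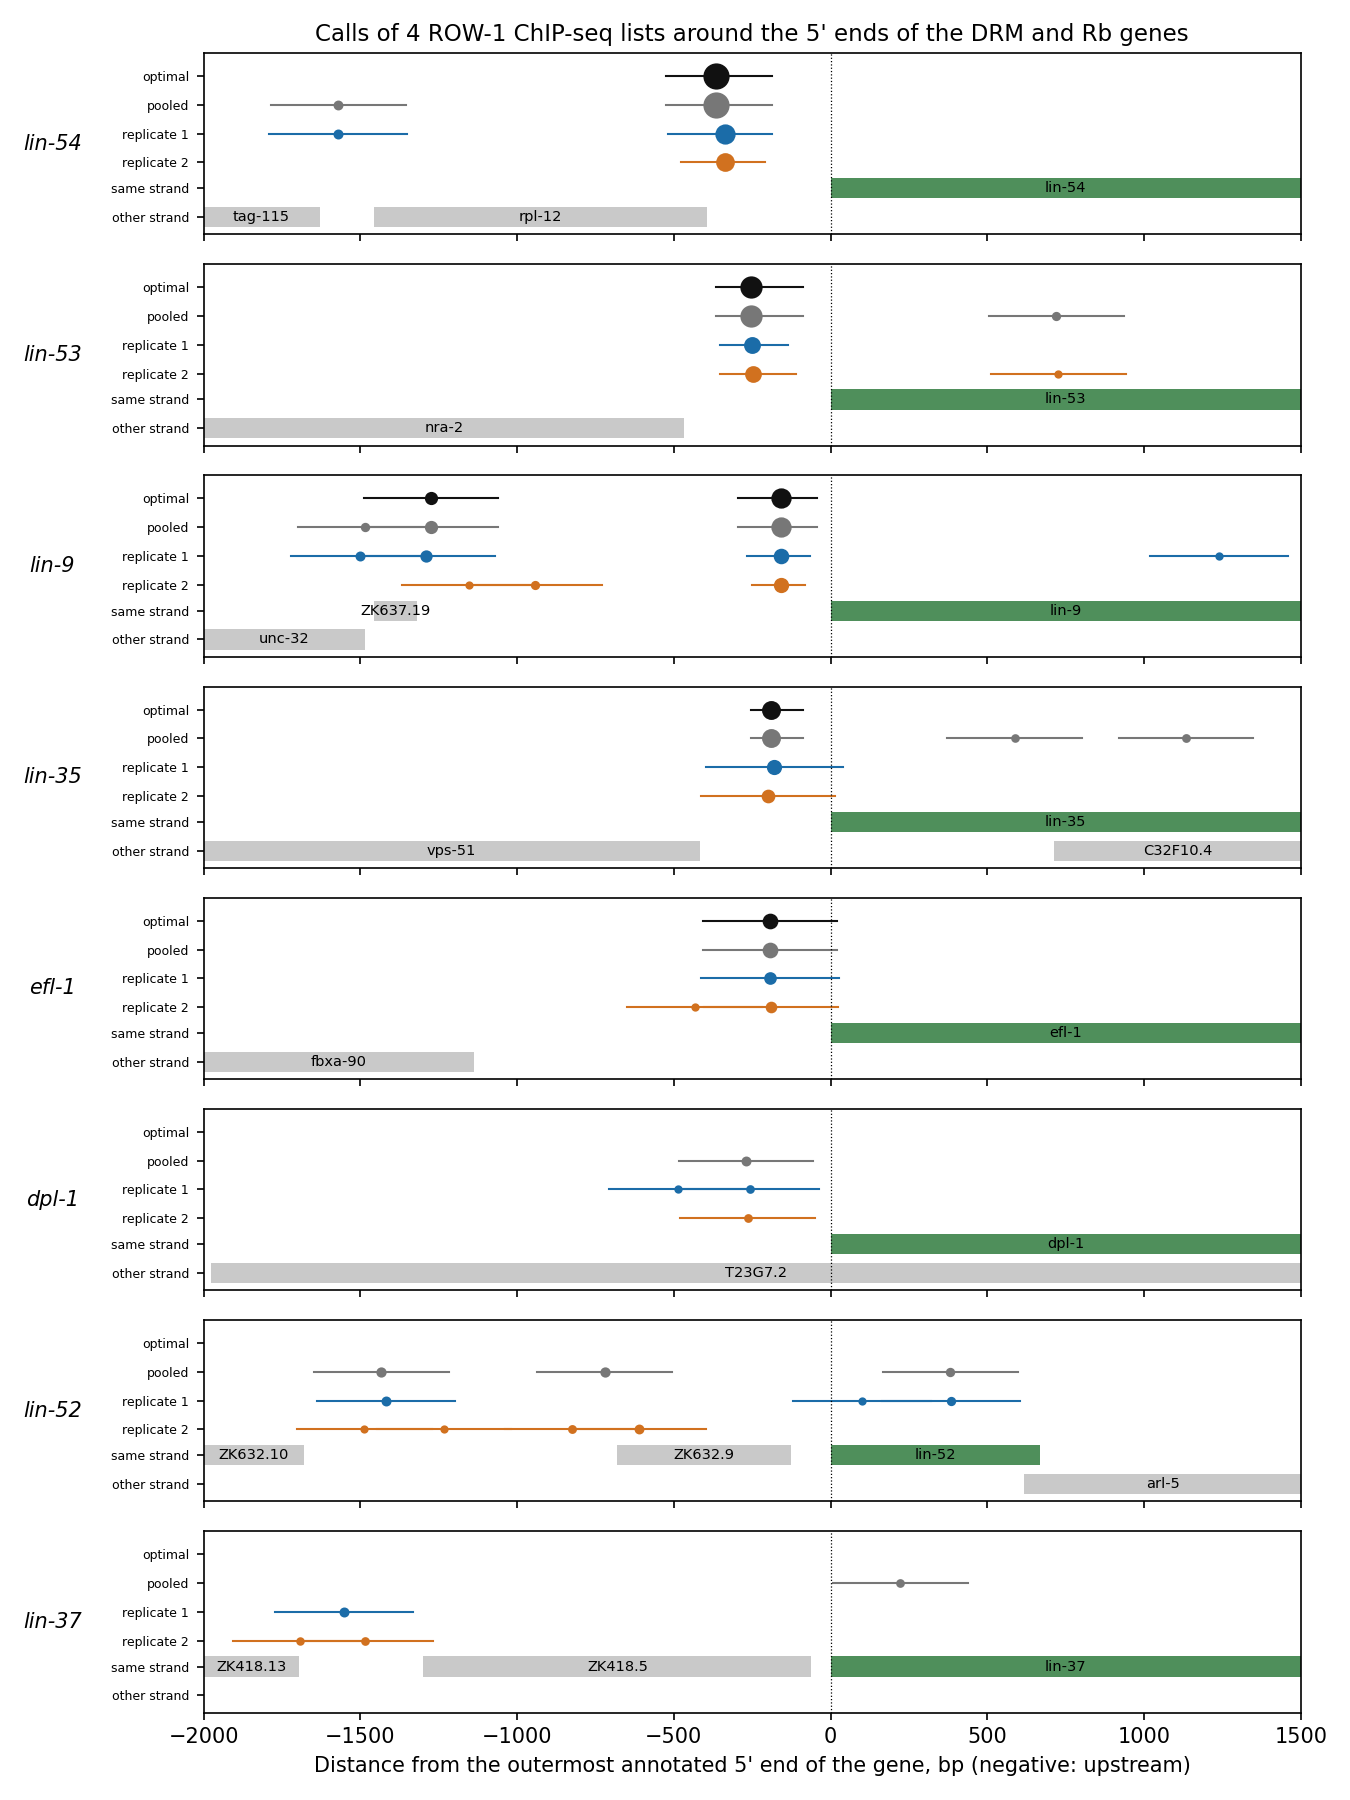
Calls of the 4 lists around the outermost annotated 5' end of each gene (horizontal axis in bp, negative upstream): lines span each call, points mark summits and grow with signal, green bars are the 8 genes and grey bars neighbouring genes by strand. Summits at lin-54, lin-53, lin-9, lin-35 and efl-1 line up across all 4 lists upstream of the 5' end, whereas dpl-1, lin-52 and lin-37 have weaker calls and no optimal peak, and their only calls in the promoter window are those of dpl-1 and 1 replicate 1 call at lin-52.

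The sequence under 3 of these peaks is shown to place the summits against the site types that the DRM complex itself is known to bind. Each run is the RefSeq sequence of WBcel235 on the strand of the gene named, 5' to 3', outside all annotated exons. Capitals mark 2 CHR forms, 3 E2F forms and the 6-base sequences whose share at optimal summits most exceeded that in flanking windows, in either orientation; each is spelled out with its shares after the sequences. For lin-9 (chrIII:8904189-8904389, minus strand) and efl-1 (chrV:16965769-16965969, minus strand) the 201 bp centred on the optimal summit are given. For lin-54 (chrIV:13240652-13240778, plus strand) the run begins just beyond the 5' end of rpl-12 and covers 127 bp, with the summit near its left end.
lin-54: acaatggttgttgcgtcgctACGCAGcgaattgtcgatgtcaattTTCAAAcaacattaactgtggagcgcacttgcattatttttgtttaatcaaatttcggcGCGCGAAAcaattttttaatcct
lin-9: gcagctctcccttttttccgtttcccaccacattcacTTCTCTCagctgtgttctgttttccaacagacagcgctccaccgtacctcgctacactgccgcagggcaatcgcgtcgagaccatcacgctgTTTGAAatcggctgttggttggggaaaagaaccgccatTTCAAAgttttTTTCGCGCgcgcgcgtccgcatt
efl-1: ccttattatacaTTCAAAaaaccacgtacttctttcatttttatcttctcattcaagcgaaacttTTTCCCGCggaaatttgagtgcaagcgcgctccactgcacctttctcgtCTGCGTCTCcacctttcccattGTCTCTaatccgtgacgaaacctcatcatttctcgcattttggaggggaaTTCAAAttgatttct

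The motif searches covered 100 bp on either side of each summit and both strands. Of the CHR forms, TTTGAA was present at 4 of the 5 promoter peaks (lin-53, lin-54, lin-9 and efl-1), against 27.9% of the 1553 nuclear optimal summits and 45.9% of 3106 windows of the same length lying 250 to 450 bp from a summit. TTCGAA was found at none of the 5, against 10.4% of summits and 14% of flanking windows. At least 1 of the E2F forms was found at 3 of the 5, against 5.54% of summits and 2.51% of flanking windows. The form TTTCGCGC lay at lin-54 and lin-9 (2.64% of summits and 0.837% of flanks), and TTTCCCGC at efl-1 (1.93% and 1.09%). The match was 82 bp from the summit at lin-54, 81 bp at lin-9 and 32 bp at efl-1. Within 50 bp of the summit, therefore, an E2F form was found at 1 of the 5 (efl-1), and TTTGAA at 3 (lin-53, lin-54 and lin-9). There TTTGAA was at 12.8% of summits and 27.3% of flanks. Within 150 bp an E2F form was found at 4 of the 5, lin-53 being added. Single E2F forms were at 0.837 to 1.29% of summits within 50 bp (flanks 0.386 to 0.451%). Within 150 bp they were at 1.67 to 3.28% (flanks 1.13 to 1.55%). The share with any E2F form was computed for 100 bp only. TTTGGCGC was at none of the 5 (1.22% and 0.644% within 100 bp). With 5 windows these are single matches and not sites shown to be bound. The 6 sequences of 6 bases whose share at optimal summits most exceeded that in the flanks were picked on these same summits. The GA repeat GAGAGA was present at 44.4% of summits and 13.4% of flanks, and among the 5 genes at lin-35 and lin-9, 91 and 60 bp from the summit. Within 50 bp none of the 5 had GAGAGA, against 28.8% of summits and 7.21% of flanks. Shifted by 1 base, AGAGAG, at 39.7% and 11.2%, was at none of them. ACGCAG, at 28.7% and 4.38%, was at lin-54 and efl-1, and CGTCTC (30.3% and 6.47%) and AGAGAC (31.3% and 8.18%) were at efl-1 alone. AGAGAA, at 42.6% and 19.6%, was at lin-35 and lin-9. The lin-53 window held none of the 6. These forms can overlap: GAGAGA and AGAGAG are shifted copies of one repeat, and at lin-9 TTCTCTC holds the reverse complements of GAGAGA and AGAGAA. At efl-1 CTGCGTCTC holds the reverse complement of ACGCAG and, overlapping it, CGTCTC. In base composition, G and C made up 37.8% of the window at lin-35, 46.3% at lin-53, 44.3% at lin-54, 53.7% at lin-9 and 41.8% at efl-1, against a median of 46.3% (quartiles 41.3 to 51.2%) over all summits and 35.4% of the genome.

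The Rb gene itself and the gene of the histone-binding subunit both had peaks shared with a gene on the other side. The lin-53 gene (WBGene00003036, chromosome I, 9618196 to 9619760, minus strand) encodes an RbAp46/48-type protein that also serves in NuRD and in other chromatin complexes. Its peak, from 9619847 to 9620126, had a signal of 293 (rank 125), with 148 (rank 173) in replicate 1 and 145 (rank 93) in replicate 2. The summit lay 253 bp upstream of lin-53 and 214 bp upstream of nra-2, which encodes a nicalin-like protein of the endoplasmic reticulum. The replicate summits were 4 bp apart.

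The lin-35 gene (WBGene00003020, chromosome I, 5807709 to 5815637, plus strand) had a peak from 5807456 to 5807622. Its signal was 197 (rank 290), with 112 (rank 324) in replicate 1 and 83.6 (rank 288) in replicate 2. The summit lay 189 bp upstream of lin-35, and 179 and 199 bp upstream in replicates 1 and 2. It was also 229 bp upstream of vps-51, which encodes a subunit of a vesicle tethering complex. At 167 bp this was the narrowest of the 5 peaks in the optimal list. The others spanned 253 bp at lin-9, 280 bp at lin-53, 340 bp at lin-54 and 430 bp at efl-1, and 430 bp was the width of 1004 optimal peaks (63.8%) but of only 1.33% of the 300 strongest. The replicates did not share the narrow width at lin-35, where their calls spanned 440 bp (replicate 1) and 430 bp (replicate 2).

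Sharing a peak with another coding gene was thus seen at 3 of the 5 genes (60%), against 417 of the 914 coding genes with a promoter peak (45.6%). Summits lay 158 to 366 bp upstream of the 5 genes, against a median of 199 bp (quartiles 119 to 301 bp) over the 914 genes, 94.7% of which had theirs upstream. The replicates agreed closely in place. Their summits were 1 bp apart at lin-54 and lin-9, 4 bp at lin-53 and efl-1 and 20 bp at lin-35, against a median of 23 bp (quartiles 10 to 50 bp) over 1571 optimal peaks with a call in both. The ratio of replicate 1 to replicate 2 signal was 1.21 at lin-54, 1.02 at lin-53, 1.05 at lin-9, 1.34 at lin-35 and 1.32 at efl-1. All 5 lay below the median ratio of 1.42 (quartiles 1.18 to 1.72), the lowest, at lin-53, being above 11.1% of peaks. Peak density around the genes differed widely. Within 100 kb there were 7 other optimal summits at lin-9, 4 at lin-53, 1 at lin-54, 1 at lin-35 and 0 at efl-1.

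The genes with and without a peak differed in how they lie beside their upstream neighbour. All 5 genes with a promoter peak were head to head with the next coding gene, that is, transcribed away from it: lin-54 with rpl-12 across 392 bp, lin-35 with vps-51 across 417 bp, lin-53 with nra-2 across 466 bp, efl-1 with fbxa-90, an F-box gene, across 1138 bp, and lin-9 with unc-32 across 1483 bp. The other 3 were not. The lin-37 gene followed ZK418.5 on the same strand after 60 bp, lin-52 followed ZK632.9 after 126 bp, and dpl-1 began inside T23G7.2. Whether transcription of lin-37 and lin-52 starts at their annotated 5' ends or farther upstream was not tested. An empty window there is therefore not a promoter shown to lack ROW-1. In a head-to-head layout 5 of the 5 DRM genes had a promoter peak, against 610 of 8420 coding genes (7.24%). Across a gap under 500 bp the counts were 3 of 3 DRM genes and 264 of 1815 coding genes (14.5%). In tandem with a gap under 200 bp, neither of the 2 DRM genes had a peak, against 20 of 1868 coding genes (1.07%). With the 5' end inside another coding gene, dpl-1 had none, against 53 of 1391 (3.81%). These classes and gaps were set after the 8 genes had been seen, and the part of the layout in the presence of a peak was not tested.

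**Figure D4:**
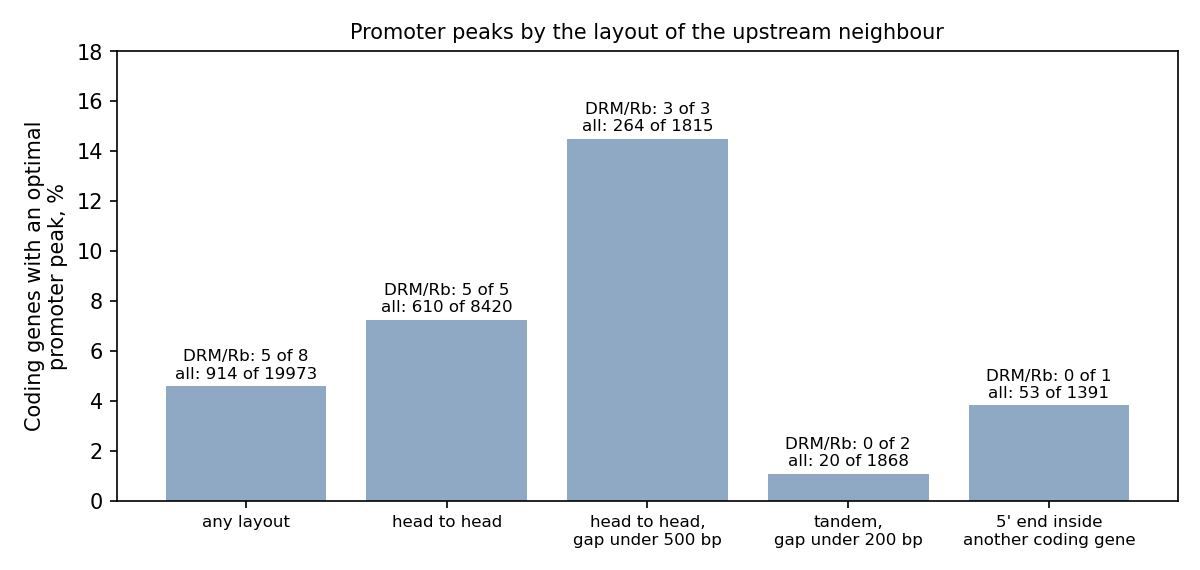
Share of nuclear coding genes with an optimal promoter peak (vertical axis, %) by the layout of the upstream coding neighbour, with counts of DRM and Rb genes and of all coding genes above each bar. The share runs from 1.07% of genes in close tandem to 14.5% of genes head to head across under 500 bp; the 5 DRM and Rb genes with a peak are all head to head.

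Genes that act with, beside or against the DRM complex were looked up in the same way. Over 8 lists of such genes, 55 of 56 symbols were found in the annotation (let-341 was not), and 6 of the 55 (10.9%) had an optimal promoter peak, with a median signal of 128, against 4.58% of all coding genes and a median of 116. None of 11 genes listed as regulators of the G1/S step had one, nor did the other E2F genes, efl-2 and efl-3. Of 8 synMuv B genes outside the complex, 1 (12.5%) had a peak: lin-36, which encodes a THAP-domain protein, with a signal of 89.8 (rank 1199), 60.1 (rank 1011) in replicate 1 and 30.1 (rank 1811) in replicate 2. Of 4 synMuv A genes, lin-38 had a peak of 91.1 (rank 1174), with 48 (rank 1462) and 38.3 (rank 1220) in replicates 1 and 2, and lin-8, lin-15A and lin-56 had none.

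The lists of chromatin complexes and of genes whose loss suppresses synMuv phenotypes held the stronger of these peaks, from 288 at hat-1 to 99.1 at chaf-2. In the NuRD and MEC list, 1 of 7 genes had one: mep-1, which encodes a zinc finger protein, with 162 (rank 421), 90.1 (rank 469) in replicate 1 and 76.6 (rank 350) in replicate 2. Among other complexes that contain LIN-53 or its relatives, 2 of 7 genes (28.6%) had a peak. For hat-1, a histone acetyltransferase gene, the signal was 288 (rank 127), with 158 (rank 151) and 128 (rank 115) in replicates 1 and 2, close in rank to lin-53 itself at 125. The other was chaf-2, for a subunit of the histone chaperone CAF-1, with 99.1 (rank 1022), 69.8 (rank 775) and 31.6 (rank 1672). Of 5 genes whose loss suppresses synMuv phenotypes, mrg-1, a chromodomain gene, had a peak of 156 (rank 454), with 96 (rank 435) and 59.5 (rank 577), and mes-4, isw-1, zfp-1 and gfl-1 had none. None of 11 genes of the EGF-Ras-MAPK pathway of vulval induction had one. Without replicate 1, that is with the 1574 strongest calls of replicate 2, lin-36 and chaf-2 dropped out and 4 of the 55 had a promoter call, against 4.22% of coding genes. Several of these peaks also lay in promoters of other genes. They were those of lin-36 (with F44B9.11), mep-1 (with M04B2.11, M04B2.12 and M04B2.13), chaf-2 (with Y71G12B.30) and mrg-1 (with spcs-2).

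Some promoters outside the complex had nearly the same ranks as those of the 5 genes. Likeness was taken as the sum, over the optimal list and both replicates, of the absolute log2 ratio of ranks, so that 0 is identity. For efl-1 the closest were sluh-7 (0.06, ranks 708, 838 and 758) and tif-1A (0.17). For lin-35 they were dld-1 (0.12, ranks 286, 321 and 271) and mekk-3 (0.14). The lin-9 peak was closest to those of mans-3 (0.18, ranks 197, 252 and 156) and the coding gene WBGene00185102 (0.35). For lin-54 the closest were hsr-9 and rps-19, which share 1 peak (0.25, ranks 64, 71 and 62), and for lin-53 gpap-1 and scpr-1, which also share 1 (0.33, ranks 138, 182 and 101).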

How the data were processed

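ChIP-seq peak lists of 2 biological replicates (1 group) on the assembly ce11 were used. The authors deposited narrowPeak lists that give, per call, a signal value and the −log10 of a q-value; both are their caller's own, and the optimal list holds the peaks past their reproducibility threshold, per the deposited file listing. The aligner, the caller, that threshold, the scale of the signal and the read depth are not given in the sources at hand, so the depth is unknown and no interval that needs it is printed.

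Coordinates, counted from 1, were set against Ensembl release 115 genes and the RefSeq sequence of WBcel235; every pooled call lay within its chromosome. Summits were assigned to promoters as defined above, and replicate values are the strongest replicate call overlapping an optimal peak. No test was run: with 1 group, results are counts, ranks and distances beside the same over all 19973 coding genes. The 8 genes, the pathway lists and the motifs were chosen with earlier results of these data known. Named are the 8 genes, the neighbours of their peaks, up to 4 genes with the strongest peaks per list (and those with none in lists of 5 or fewer), and the closest pair in rank to each peak. Alternatives were other windows, other numbers of calls, each replicate alone, and other motif distances. Assignment was tested on simulated data. Python 3.11.15, numpy 2.4.6, scipy 1.17.1 and matplotlib 3.10.9 were used.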

Additional observations from a re-analysis of the deposited data

How the results depend on the processing

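The count of 5 genes with a promoter peak fell to 3 (lin-35, lin-9 and efl-1) with a promoter of 250 bp upstream to 100 bp downstream, where 2.83% of coding genes had a peak, and to 3 when a peak was given only to the nearest coding gene, where 3.53% did; the lin-53 summit, at 253 bp, and the lin-54 summit, at 366 bp, lay beyond the narrow window, and both were nearer to the gene on the other side. It was 5 with the wider promoter (6.08% of coding genes), the outermost 5' end alone (4.27%) and any overlap of the peak (5.25%). Without replicate 1 or 2 it ranged from 5 to 5. It was also 5 with the 787 strongest peaks (2.31%) and with 3148 pooled calls (7.98%), but the ranks fixed this beforehand. The 5 peaks stood at pooled ranks 61 to 704, and the next pooled promoter call, at dpl-1, at rank 8199. The count over the pathway lists, 6, was 11 with a promoter of 1000 bp upstream to 500 bp downstream, which added cye-1, lin-23, lin-13, lin-40 and zfp-1, against 6.08% of coding genes. It ranged from 4 to 6 without replicate 1 or 2, against 4.22% and 4.59% of coding genes. The share of summits with TTTGAA was 12.8% within 50 bp and 41.7% within 150 bp, and of the 5 genes 3 had an E2F form within 100 bp of the summit, 1 within 50 bp and 4 within 150 bp. Over all summits, the share with a single E2F form also grew with the window, from 0.837 to 1.29% within 50 bp to 1.67 to 3.28% within 150 bp. With 2157 pooled calls, the number of peaks in the deposited ce10 list and an alternative added after the data were seen, the same 5 genes had a promoter call (6.06% of coding genes). The same ranks fixed this result too. Of the pathway genes without an optimal promoter peak, dcp-66 (71.7, rank 1681), lin-61 (67.3, rank 1832) and mes-2 (62.9, rank 2035) had promoter calls among these 2157. Unknown depth, 2 replicates and 8 genes limit all values. No paired analysis was possible because the samples form a single group.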

Other observations

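Coding genes differed by chromosome in how often a promoter held an optimal peak, from 139 of 4994 genes (2.78%) on V, where efl-1 lies, to 176 of 2640 (6.67%) on III, where lin-9, lin-37 and lin-52 lie. On IV, the chromosome of lin-54, 145 of 3281 genes (4.42%) had one, and on II, that of dpl-1, 145 of 3449 (4.2%). Of the 1574 strongest calls of replicate 1, 8 (0.508%) overlapped no pooled call, and 5 of these had a call in replicate 2; of the 1574 strongest of replicate 2, 7 (0.445%) had no pooled counterpart and 3 of these a call in replicate 1. The upstream calls near lin-37 are a weaker case of the same kind.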
